A study of Mus musculus with 12 samples.

Results

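Normal haematopoietic stem cells (HSC) were set beside normal double-positive (DP) thymocytes, the healthy counterparts of the leukaemic and lymphoma samples in a series of 12 mouse arrays. These groups make up 5 of the 12 arrays and were chosen by their sample titles. The HSC arrays (n = 2) hold bone marrow cells of normal female Balb/c mice, sorted as Lin-Sca-1+c-kit+, with marrow of 5 mice pooled for each sort. The DP arrays (n = 3) hold Thy1+ CD4+CD8+ cells sorted from the thymus of normal Balb/c mice, with 3 mice pooled for each sample; their sex is not given in the sources used here, nor is the age of either group. Both groups are labelled normal, whereas the other arrays carry the ZMYM2-FGFR1 fusion or come from a cell line. They hold GFP+ leukaemic stem cells (LSC, n = 2) from marrow or spleen, T lymphomas of serially transplanted mice (n = 4, of which 1 was sorted) and the ZNF112 cell line (n = 1), and enter below only as values. RNA was amplified before labelling and hybridised to Affymetrix mouse expression arrays. The sort gate that defines HSC here also holds multipotent progenitors.

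HSC sustain all blood lineages and are known for a network of transcription factors, among them the Meis, Gata, Tal and ETS families, and for receptors such as c-Kit that respond to signals of the marrow niche. DP thymocytes stand much later, within the T lineage. They have rearranged their T cell receptor beta gene, express both coreceptors CD4 and CD8, rearrange the alpha gene with the RAG recombinase, and await selection on self peptides.

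The 2 cell types were normalized apart by the authors: array medians were 46.0 and 44.9 intensity units in HSC, against 101.7 to 104.1 in DP thymocytes. Intensities were therefore replaced by percentile ranks within each array, where 0 is the dimmest and 100 the brightest of 45037 probe sets. A difference is given in percentile points, HSC minus DP. A percentile shows a gene's place among all probe sets of 1 array, so it is set only against the same gene in other arrays, and a change near the top of the scale is compressed. Across the 11642 genes tested, arrays correlated at 0.926 between HSC 1 and HSC 2, at 0.993 to 0.994 among DP arrays, and at 0.597 to 0.632 between the groups (Pearson's r over genes, which are not independent replicates).

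In HSC, 4170 genes were higher and 2801 lower than in DP thymocytes (limma, Benjamini-Hochberg adjusted p under 0.05, here named a call), that is 35.8% and 24.1% of the genes tested. A gene was tested if its probe set exceeded the 50th percentile in at least 2 of the 5 arrays, so a gene that passed through 1 group alone had to differ. In every list below, the direction of such a gene was set by the filter. With so many calls, the count in a gene list is read against these shares, and its median difference against that of all genes tested, 1.07 points. Differences of at least 50 points were called in 244 genes higher and 35 genes lower in HSC. Fewer cells of a type and less RNA per cell cannot be told apart in such bulk samples. The spread between HSC arrays (root mean square SD 4.51 points) exceeded that among DP arrays (1.59 points). With a spread of its own for each group, 3299 genes were higher and 2229 lower. With a required difference of more than 10 points, 1411 were higher and 498 lower. Fits without 1 array are also given below. Without an HSC array, a single HSC array is left, and the error is estimated from the DP arrays alone. Calls and counts from such fits hold no spread between HSC arrays and are given as description only.

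**Figure D1:**
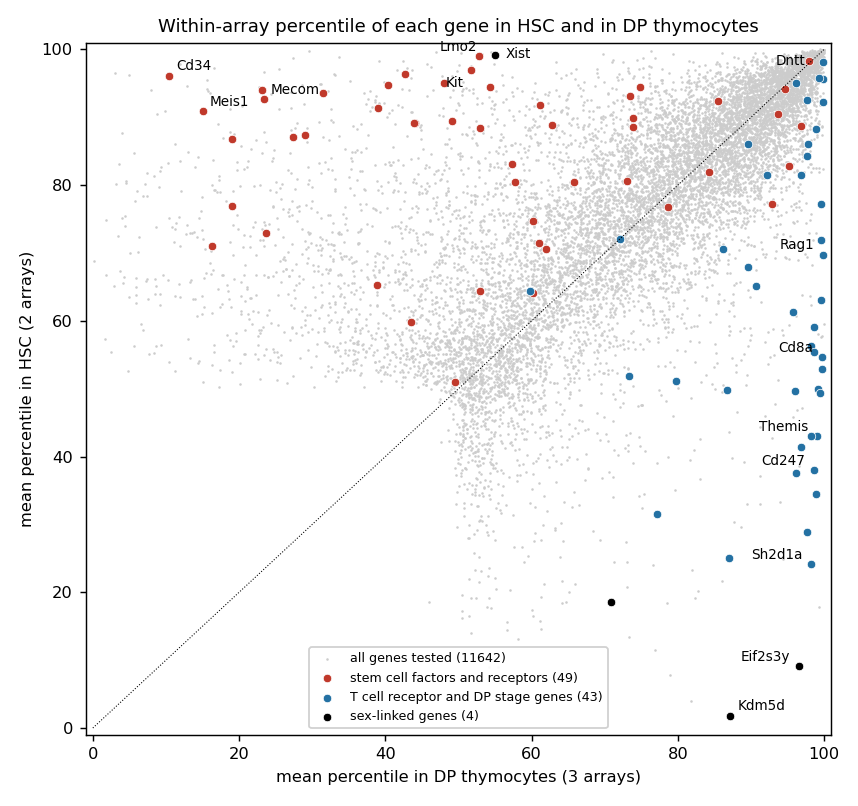
Mean percentile of each of the 11642 genes tested in HSC (vertical, 2 arrays) against DP thymocytes (horizontal, 3 arrays); the dotted line marks equal percentiles. Stem cell genes (red) lie mostly above the line and T cell receptor and DP stage genes (blue) mostly below it, while the sex-linked genes (black) Eif2s3y and Kdm5d lie at the lower right and Xist near the top.

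The genes behind the sort went with their labels. Kit, the stem cell factor receptor c-Kit, stood at percentiles of 96.9 and 96.9 in HSC, against 53.6, 50.4 and 51.1 in DP thymocytes, a difference of 45.2 ± 1.60 points (SE; limma, adjusted p = 2.77e-05). Thy1, a surface glycoprotein of thymocytes, stood at 64.6 and 50.9 in HSC and at 99.7, 99.7 and 99.7 in DP thymocytes. The coreceptor genes Cd4, Cd8a and Cd8b1 were lower in HSC, with differences of -39.5, -45.1 and -46.9 points. HSC 1 was above HSC 2 for Thy1, Cd4 and Cd8a, by more than 10 points each. Ptprc, the pan-leukocyte antigen CD45, was near the top of the scale in both groups, with a called difference of -1.10 points. Ly6a, which encodes Sca-1, was not analysed here.

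Stem cell transcription factors were higher in HSC as a group. Of 27 listed, 26 had a probe set and 25 passed the filter on low values. Of these, 20 were higher, 1 lower and 4 not called, beside 35.8% higher and 24.1% lower over all genes tested. The median difference was 22.7 points. Meis1, Nfe2, Mecom, Hlf, Tal1, Erg, Gfi1b, Cebpa, Mycn and Prdm16 passed the filter through the HSC arrays alone and so had to be higher. Meis1, a homeodomain factor that maintains HSC, stood at 89.5 and 92.2 in HSC, against 13.3, 15.5 and 16.3 in DP thymocytes (75.8 ± 1.97 points, adjusted p = 1.95e-05). The groups were far apart and the 2 HSC arrays within 3 points of each other. Nfe2, a factor of megakaryocyte and erythroid cells, was higher by 71.0 ± 2.44 points. Mecom, a zinc finger factor needed for HSC self-renewal, was at 92.2 and 93.1 in HSC and at 20.6, 26.2 and 23.3 in DP thymocytes. Hlf, a bZIP factor typical of HSC, was higher by 62.0 ± 1.37 points, with 93.7 and 93.4 in HSC, against 31.1, 32.0 and 31.6 in DP thymocytes. These 4 genes had the largest differences in the list.

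Several factors known to act with each other in blood progenitors were higher in HSC. Tal1, a bHLH factor, was higher by 54.3 points, its relative Lyl1 by 47.1, the adaptor Lmo2 by 46.1, the ETS factor Erg by 52.4 and Gata2 by 30.7. Gfi1b, a repressor in megakaryocyte and erythroid development, was higher by 58.4 points and Cebpa, a factor of the myeloid lineage, by 49.4. Spi1, which encodes PU.1, stood at 83.5 and 77.4 in HSC, against 58.2, 57.0 and 57.9 in DP thymocytes. Among the Hox genes, Hoxb4 was higher by 11.4, Hoxa5 by 10.5 and Hoxa7 by 8.73 points. Hoxa9, a Hox gene of HSC and of leukaemia, gave results that depended on the probe set. The probe set used was not called (3.86 points, adjusted p = 0.142), while the other one stood at 98.2 and 98.7 in HSC, against 14.7, 15.7 and 13.7 in DP thymocytes, a difference of 83.7 points (adjusted p = 1.55e-05).

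Other members were not called or lower in HSC. Fli1 and Egr1 had differences of -2.33 and 0.316 points (adjusted p = 0.446 and 0.631). The difference of Egr1 was -0.601 points without HSC replicate 1 and 1.23 points without HSC replicate 2, each with 1 HSC array left. Runx1, a founding factor of blood stem cells, was not called on the probe set used (-1.87 points, adjusted p = 0.29), while 4 of its other probe sets were called lower, at -9.39, -10.7, -14.4 and -32.7 points. Gfi1, a repressor with known roles in both HSC and thymocytes, was the member that was lower in HSC, at 86.9 and 90.4 against 97.1, 97.0 and 96.3 in DP thymocytes. Without either HSC replicate 1 or HSC replicate 2, 2 members were lower. Mycn was higher by 45.1 points on the probe set used, while another probe set of the gene was called lower, at -4.60 points.

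Promoters of the leading gene of each main list are shown so that their start regions can be read beside the differences. They are RefSeq sequences of 300 bases on GRCm38.p6, from 250 bases before to 50 after the annotated start, written 5′ to 3′ on the gene's strand. Capitals mark matches on either strand to any of 5 motifs. They are GATAAG, named for the factors that bind it; the E-boxes CAGCTG and also CAGGTG; the RUNX motif TGTGGT; and the ETS motif CCGGAAG. The promoter of Meis1 (chr11:19018920-19019219, minus strand) held the RUNX motif at position -166 from the start and the ETS motif on the reverse strand at position -12. That of Cd34 (chr1:194938571-194938870, plus strand), the leading receptor gene described below, held the GATA motif 3 bases past the start.
Meis1: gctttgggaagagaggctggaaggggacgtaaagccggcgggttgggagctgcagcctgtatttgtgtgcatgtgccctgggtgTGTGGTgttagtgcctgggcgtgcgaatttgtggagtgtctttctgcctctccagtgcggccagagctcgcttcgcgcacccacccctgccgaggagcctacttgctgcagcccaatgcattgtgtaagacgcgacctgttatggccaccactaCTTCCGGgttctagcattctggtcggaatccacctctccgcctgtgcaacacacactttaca
Cd34: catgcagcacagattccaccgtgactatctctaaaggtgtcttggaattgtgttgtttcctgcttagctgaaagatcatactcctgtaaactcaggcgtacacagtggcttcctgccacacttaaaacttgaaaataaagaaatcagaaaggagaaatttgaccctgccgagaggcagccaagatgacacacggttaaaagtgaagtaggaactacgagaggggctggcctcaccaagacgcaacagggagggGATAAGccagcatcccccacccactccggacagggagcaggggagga
Over all 27025 promoters of that length, 16.9% held TGTGGT, 9.12% CCGGAAG and 7.43% GATAAG, and over the 9458 of the genes tested, 12.6%, 18.5% and 4.78%. Of the 50 called genes with the largest positive difference, 39 had a promoter entry, and 23.1%, 2.56% and 7.69% of these held the same motifs. A match is a description of letters and not evidence of binding.

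Surface receptors of stem and progenitor cells were higher in HSC as well. Of 28 listed, 25 had a probe set and 24 were tested: 19 were higher, 3 lower and 2 not called (median 26.2 points, against 1.07 over all genes). Over all genes tested, 35.8% were higher and 24.1% lower. Cd34, Csf3r, Csf2rb, Tek, Cd93, Procr, Flt3, Fgd5 and Robo4 passed the filter through the HSC arrays alone and so had to be higher. Cd34, a sialomucin of progenitors, was at 95.2 and 97.1 in HSC, against 8.03, 8.99 and 14.4 in DP thymocytes (85.7 ± 2.53 points, adjusted p = 2.05e-05). This was the largest difference in the list. Csf3r, the receptor of granulocyte colony-stimulating factor, was higher by 67.8 ± 2.74 points. Csf2rb, the shared beta chain of the receptors for interleukin-3, interleukin-5 and GM-CSF, was at 93.4 and 80.9 in HSC, with HSC 1 above HSC 2, and at 24.1, 27.9 and 30.2 in DP thymocytes.

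Most other members of the list followed the same direction. Fgd5, a guanine nucleotide exchange factor used to mark HSC, was higher by 58.0 points, the angiopoietin receptor Tek by 54.6 and Cd93, a C-type lectin, by 53.7. Procr, the endothelial protein C receptor, was at 90.9 and 87.3 in HSC, against 43.4, 44.2 and 44.3 in DP thymocytes. Flt3, a receptor of multipotent and lymphoid-primed progenitors, was higher by 40.3 ± 1.41 points, with 90.5 and 88.4 in HSC. Slamf1, Il6st and Tgfbr1 were lower in HSC, with differences of -15.6, -12.3 and -3.17 points; Slamf1 encodes the HSC marker CD150, which thymocytes are also known to carry. Without any single DP replicate, Il6st and Tgfbr1 were no longer called. Tgfbr2 and Il3ra were not called, at -0.472 and 1.46 points. The difference of Tgfbr2 was 2.70 points without HSC replicate 2 and -3.64 points without HSC replicate 1, each with 1 HSC array left.

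Lymphoid priming genes, which mark the progenitors that leave towards the lymphoid lineages, were split between the groups. Of 13 tested, 5 were higher in HSC, 7 lower and 1 not called, beside 35.8% higher and 24.1% lower over all genes tested. Irf8, a factor of myeloid and B cell development, was higher by 28.4 points, with Flt3 as given above. The interleukin-7 receptor gene Il7r was at 86.7 and 74.2 in HSC, against 61.8, 60.3 and 61.8 in DP thymocytes. Rag1, Ccr9 and Satb1 were lower in HSC, with differences of -30.1, -27.6 and -7.73 points. Dntt, the terminal transferase that adds bases at V(D)J joints, was at 98.0 and 98.4 in HSC and at 99.9, 99.9 and 99.8 in DP thymocytes, near the top of the scale in both. Without any single DP replicate, 3 of the 5 higher members were called. Among 14 genes tied to quiescence and self-renewal, 9 were higher, 2 lower and 3 not called. Ndn (necdin) was higher by 44.3, Ptpn21 by 44.0 and Socs2, a cytokine feedback inhibitor, by 36.7 points. Ndn, Ptpn21, Socs2 and, in the lymphoid list, Flt3 passed the filter through the HSC arrays alone and so had to be higher. Cdkn1c, which encodes the CDK inhibitor p57, differed by 8.86 points, and Cdkn1b, which encodes p27, was lower by 12.1. Without HSC replicate 1, 4 of these genes were lower, and without any single DP replicate 1.

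**Figure D2:**
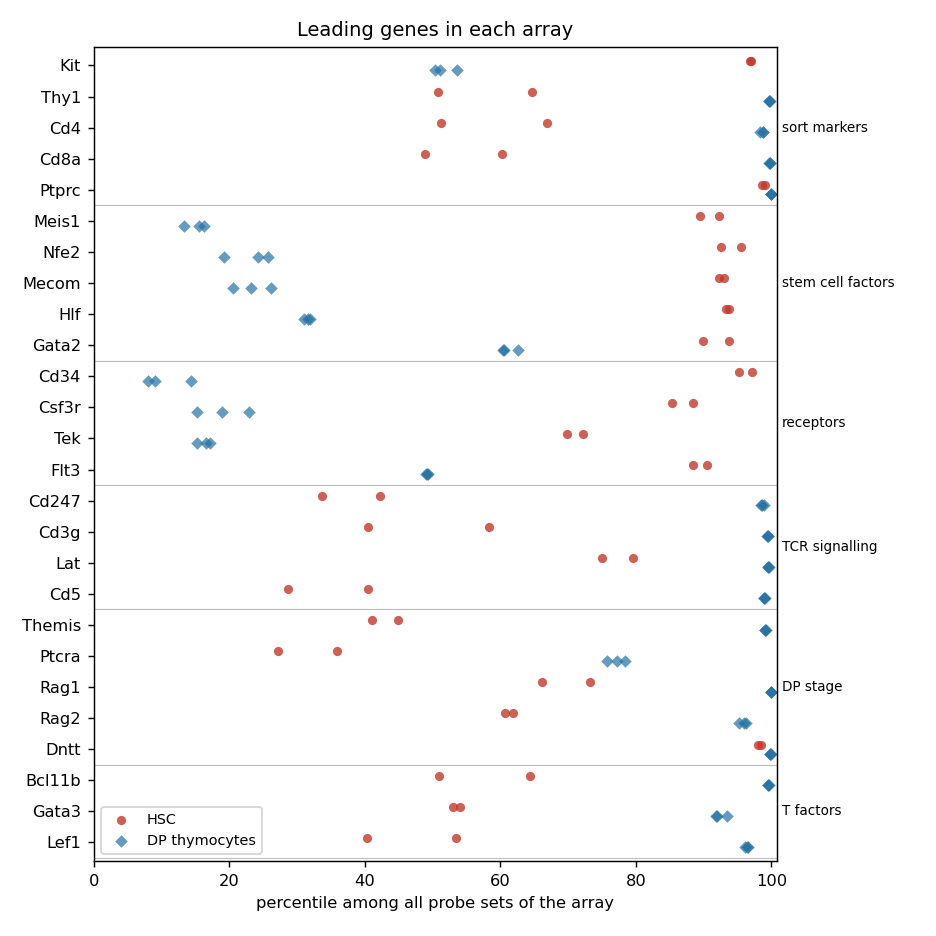
Percentile of 26 genes in each array, with HSC as red circles (2 arrays) and DP thymocytes as blue diamonds (3 arrays), grouped by role. Stem cell factors and receptors lie to the right in HSC, T cell genes to the right in DP thymocytes, and the HSC arrays scatter more than the DP arrays for Thy1, Cd4, Cd3g and Bcl11b.

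Genes of the T cell receptor complex were lower in HSC. Of 11 names listed, 7 had a probe set of their own and 6 were tested, and the 6 were lower, with a median difference of -49.7 points. Cd247, Trat1 and Trbv13-2 passed the filter through the DP arrays alone and so had to be lower, as did such members of the T cell lists below. Cd247, the zeta chain that carries most of the signalling motifs, was at 42.3 and 33.8 in HSC, against 98.9, 98.5 and 98.4 in DP thymocytes (-60.6 ± 2.67 points, adjusted p = 4.22e-05). Cd3g was at 58.3 and 40.4 in HSC, against 99.4, 99.5 and 99.3 in DP thymocytes, and Cd3d and Cd3e differed by -49.3 and -25.5 points. Trat1, an adaptor that binds the receptor, differed by -58.6 points and the beta variable segment Trbv13-2 by -36.9. HSC 1 lay above HSC 2 for Cd3g, Cd3d and Cd3e and below it for Trat1.

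The promoter of Cd247 (chr1:165788431-165788730, plus strand) held the E-box CAGGTG at position -10 and none of the other motifs. Themis, the leading DP stage gene below, has 2 promoter entries. The first listed held none of the 5 motifs, and the other was not searched.
Cd247: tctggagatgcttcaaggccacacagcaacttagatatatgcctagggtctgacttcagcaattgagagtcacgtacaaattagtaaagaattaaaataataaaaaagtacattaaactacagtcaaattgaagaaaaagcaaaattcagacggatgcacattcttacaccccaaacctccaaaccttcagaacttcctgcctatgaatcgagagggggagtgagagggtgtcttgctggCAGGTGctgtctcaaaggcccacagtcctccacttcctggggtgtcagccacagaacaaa
CAGGTG was present in 20% of all promoters of that length, in 17.6% of those of the genes tested, in 28.1% of the 32 promoters listed for the 50 called genes with the largest negative difference, and in 15.4% of the 39 for the largest positive ones. CAGCTG was present in 16.1%, 14.8%, 25% and 7.69% of the same sets. These shares rest on few promoters and were not tested.

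Genes that relay the receptor signal were lower in HSC too, 18 of 19 tested (median -21.6 points; 24.1% of all genes were lower). Sh2d1a, which encodes the adaptor SAP, was at 21.8 and 26.4 in HSC, against 98.4, 98.4 and 97.9 in DP thymocytes. Skap1, an adaptor of integrin activation, differed by -68.7 points, Cd5 and Cd6, receptors that restrain the signal, by -64.4 and -55.4, and the Tec kinase gene Txk by -62.0. The adaptors Lat and Lcp2 (SLP-76) differed by -22.2 and -10.6 points, with 79.5 and 75.1 for Lat and 89.8 and 86.8 for Lcp2 in HSC. Zap70, the kinase that binds Cd247, was not called on the probe set used (0.074 points, adjusted p = 0.98), while its other probe sets were called lower, at -63.1 and -39.0 points.

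Genes of the DP stage were lower in HSC in 16 of 19 tested, with 0 higher and 3 not called (median -30.1 points). Over all genes tested, 24.1% were lower. Themis, which tunes the receptor signal during selection, was at 44.9 and 41.1 in HSC, against 99.1, 99.1 and 99.0 in DP thymocytes (-56.1 ± 1.68 points, adjusted p = 2.05e-05). The recombinase genes Rag1 and Rag2 stood at 73.3 and 66.2 and at 61.9 and 60.7 in HSC, against 99.9, 99.9 and 99.9 and 96.2, 95.3 and 95.9 in DP thymocytes. Ptcra, the chain that pairs with beta in the pre-TCR, differed by -45.5 points, Arpp21 by -43.1 and Endou by -36.6. Bcl2l1, which encodes the survival factor Bcl-xL of DP cells, was at 87.0 and 75.8 in HSC, against 96.8, 97.0 and 96.8 in DP thymocytes. Mns1, Cd1d1 and Cplx2 were not called, at -3.41, -1.11 and 4.62 points. Another probe set of Cd1d1 was called lower, at -4.44. The difference of Mns1 was 3.53 points without HSC replicate 1 and -10.4 points without HSC replicate 2, each with 1 HSC array left.

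Of 12 genes of recombination and end joining, 7 were lower in HSC, 1 higher and 4 not called. Over all genes tested, 24.1% were lower and 35.8% higher. Lig4, the ligase of end joining, differed by -28.3 points and its partner Xrcc4 by -11.5. Poll, a repair polymerase, was higher by 41.4 points, with 65.3 and 69.5 in HSC, against 24.3, 25.0 and 28.8 in DP thymocytes. It passed the filter through the HSC arrays alone and so had to be higher. Its relative Polm was lower by 13.3. Without HSC replicate 1, 3 members were higher.

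T lineage transcription factors were lower in HSC in 16 of 21 tested, higher in 2 and not called in 3 (median -12.3 points). Over all genes tested, 24.1% were lower and 35.8% higher. Lef1, an effector of Wnt signalling, was at 53.4 and 40.3 in HSC, against 96.6, 96.3 and 96.1 in DP thymocytes. Bcl11b, which commits cells to the T lineage, was at 64.3 and 50.9 in HSC and at 99.5, 99.7 and 99.5 in DP thymocytes, and Gata3 had a difference of -38.8 ± 1.45 points. Id3, an E protein inhibitor, Egr2 and Tox differed by -45.6, -34.4 and -32.8 points. Ets1 and Ets2 differed by -12.3 and -17.4. Among factors also known from progenitors, Ikzf1 and Sox4 were lower, at -1.82 and -2.03 points, and 5 other probe sets of Sox4 were called lower, at -10.6 to -23.6. Myb was not called on the probe set used (-0.32 points, adjusted p = 0.13), while 2 others were called lower, at -2.73 and -13.6. Runx3 was higher in HSC, at 77.9 and 79.7 against 45.7, 42.0 and 48.8 in DP thymocytes, as was Zbtb7b, by 6.99 points; both are known for their roles after the DP stage. Ikzf3 stood at 89.0 and 50.6 in HSC, so its arrays disagreed, and was not called; 2 other probe sets were called lower, at -14.1 and -50.3 points.

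Notch signalling drives T cell commitment, and calls among its genes were near the shares over all genes tested. Of 14 tested, 4 were higher and 4 lower, beside 35.8% and 24.1% of all genes tested, and 6 were not called. The median was 0.208 points, and a further 3 lay below the filter, among them Il2ra. In HSC, Notch3 and Notch1 were lower, with differences of -19.3 and -3.09 points (Notch1 not called without any single DP replicate), while Notch2 was higher by 5.92 and the glycosyltransferase Mfng by 11.8. Myc was higher by 27.9 ± 1.82 points, at 91.5 and 93.7 in HSC, against 64.2, 66.9 and 63.1 in DP thymocytes. The targets Hes1, Dtx1 and Nrarp were not called, at 9.03, -7.31 and -0.378 points (adjusted p = 0.0696, 0.0635 and 0.858). Another probe set of Dtx1 was called lower, at -35.0, and another of Nrarp higher, at 8.14.

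**Figure D3:**
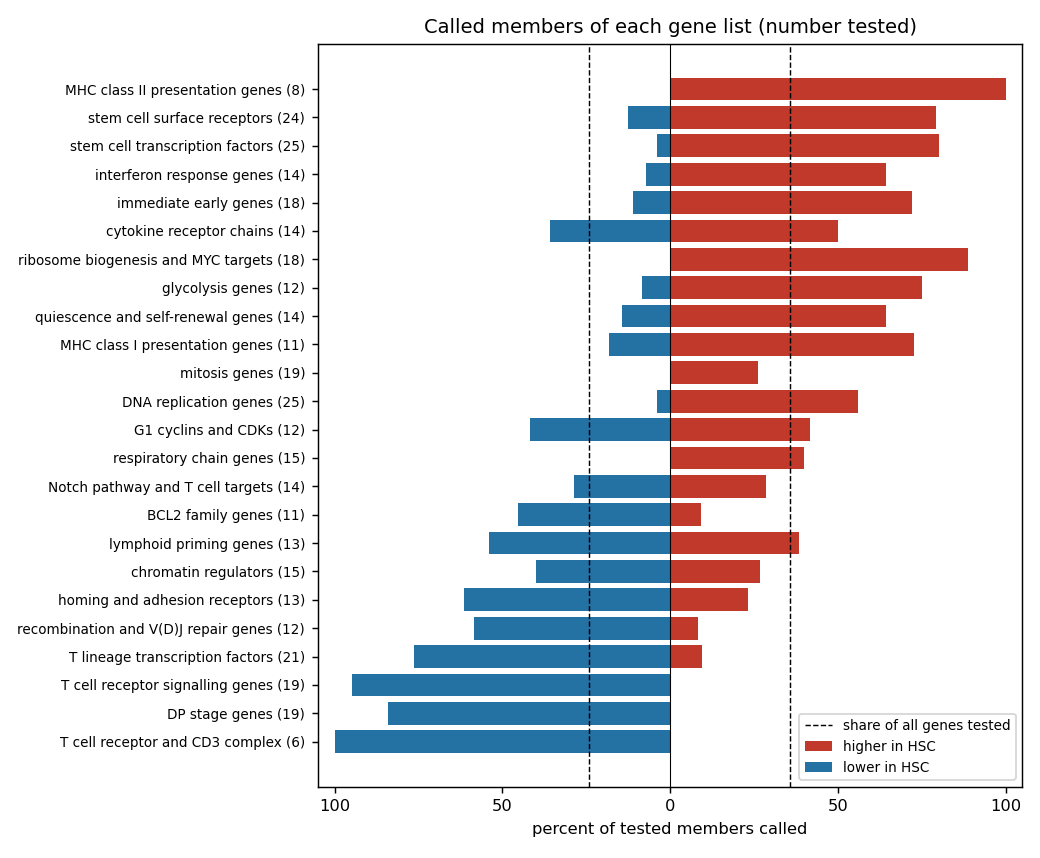
Percent of tested members of each gene list called higher (red, right) or lower (blue, left) in HSC, ordered by the median difference, with the number tested in brackets. Dashed lines mark the shares over all genes tested, 35.8% higher and 24.1% lower; the T cell receptor and DP stage lists exceed the second, and the MHC class II, stem cell and ribosome biogenesis lists the first.

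Growth genes were higher in HSC. Of 18 genes of ribosome biogenesis and MYC targets, 16 were higher and 0 lower, with a median of 7.83 points. Srm, the spermidine synthase, was at 97.0 and 97.3 in HSC, against 67.6, 70.3 and 69.1 in DP thymocytes (28.1 ± 1.44 points). Cad, which starts pyrimidine synthesis, was higher by 26.7 points, Eif4ebp1 by 24.3, the RNA polymerase I subunit gene Polr1b by 20.2 and Odc1, ornithine decarboxylase, by 11.1. Glycolysis genes were higher in 9 of 12 tested and lower in 1 (median 5.65 points). Hk2 was higher by 25.6 points, Tpi1 by 12.8 and Pgam1 by 12.4, and Pfkp was lower by 4.77. With the median over a gene's probe sets, 5 glycolysis genes were higher. Respiratory chain genes had a median difference of 0.722 points, with 6 of 15 higher, near the 35.8% of all genes tested, and 0 lower. Without DP replicate 1 or DP replicate 3, 3 were higher. Ndufb8 was higher by 3.94, with the direction turned, to -0.651, by the median over its probe sets.

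Cell cycle genes gave calls that depended on single arrays. DNA replication genes were higher in 14 of 25 and lower in 1 (median 3.88 points), beside 35.8% and 24.1% of all genes tested. Among the higher were the polymerase genes Pole, by 12.5, and Pola1, by 12.1 points (not called without DP replicate 2). Mcm3, a subunit of the replicative helicase, stood at 96.0 and 97.5 in HSC, against 91.9, 93.0 and 93.5 in DP thymocytes. With a spread of its own for each group, 7 were higher; 0 were lower without HSC replicate 1, DP replicate 2 or DP replicate 3, and 3 without HSC replicate 2. Mitosis genes were higher in 5 of 19 and not called in 14 (median 4.43 points). The share of them called higher was below the 35.8% of all genes tested. Aurkb, a mitotic kinase, stood at 87.8 and 91.6 in HSC and at 67.5, 75.9 and 82.7 in DP thymocytes, and its arrays were apart from each other by up to 15 points within the DP group. Without HSC replicate 1, 12 mitosis genes were higher, without HSC replicate 2 or DP replicate 2 it was 0, and with the replicate number as a block 16.

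The cyclin genes of G1 differed by member. Ccnd2 was at 97.6 and 96.1 in HSC, against 45.2, 53.0 and 51.4 in DP thymocytes (47.0 ± 2.62 points), whereas Ccnd3, which thymocytes need for expansion, was lower by 10.4 and Ccnd1 was not called on the probe set used (1.02 points) but higher on 2 others, by 27.4 and 16.3. Cdk6 and Cdk4 were higher by 5.92 and 4.39, and E2f2 and the RB relative Rbl2 lower, at -20.2 and -13.7. In all, 5 of these 12 genes were higher and 5 lower, beside 35.8% and 24.1% of all genes tested.

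Antigen presentation and interferon genes were mostly higher in HSC. MHC class II genes were higher in 8 of 8 tested, with a median of 28.5 points. Over all genes tested, 35.8% were higher and 24.1% lower. H2-Eb1 stood at 98.5 and 87.8 in HSC, against 57.6, 58.8 and 56.0 in DP thymocytes, and Cd74, the invariant chain, at 97.9 and 79.5, against 61.1, 61.1 and 60.8. HSC 1 was above HSC 2 by at least 10 points in 5 of the 9 measured class II genes, as it was for macrophage and B cell markers, given below. Ciita, the activator of the class II genes, lay below the filter, at 60.0 and 37.3 in HSC and 33.6, 32.1 and 32.2 in DP thymocytes. Of 11 MHC class I genes, 8 were higher and 2 lower (median 5.07 points): Nlrc5, their activator, by 21.5, the immunoproteasome gene Psmb9 by 9.51, H2-K1 by 5.25 and B2m by 2.76 points. Without DP replicate 2, 0 class I genes were lower, and without DP replicate 1 it was 1. Of 14 interferon response genes, 9 were higher and 1 lower (2 lower without HSC replicate 2). Ifitm1 and Ifitm3, membrane proteins that block viral entry, were higher by 59.1 ± 3.35 and 52.1 ± 2.09 points, and Ifitm3 stood at 98.0 and 97.6 in HSC, against 45.0, 49.0 and 43.0 in DP thymocytes. Usp18 was higher by 21.4 points, while Irf7 was not called (8.91, adjusted p = 0.0952).

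Receptors for cytokines and homing were divided between the cell types. Among 14 cytokine receptor chains tested, 7 were higher in HSC and 5 lower, beside 35.8% and 24.1% of all genes tested. Il6ra was higher by 39.2 points and Epor, the erythropoietin receptor, by 24.6, while Il21r and Il4ra were lower, at -22.4 and -16.9. The interferon receptor chains moved apart, with Ifnar2 higher by 20.8 and Ifnar1 lower, at -10.7 points. Of 13 homing and adhesion receptors, 3 were higher and 8 lower. Vcam1, an adhesion molecule of the marrow, was at 99.2 and 91.6 in HSC, against 30.0, 36.3 and 39.4 in DP thymocytes. Ccr9 and Ccr4, chemokine receptors of thymocytes, differed by -27.6 and -34.7 points and Cxcr4 by -5.43. Without HSC replicate 2, 5 of these receptors were higher.

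In the BCL2 family 5 of 11 genes were lower in HSC and 1 higher, beside 24.1% and 35.8% of all genes tested. Bmf, a BH3-only death inducer, was at 68.0 and 44.5 in HSC, against 90.6, 90.1 and 88.1 in DP thymocytes, and Bbc3, which encodes Puma, was lower by 13.3 points. Bcl2 was lower by 8.58 points on the probe set used, while 2 of its other probe sets were called higher, at 7.70 and 6.26. Bcl2l2 was higher by 15.9 points, and Mcl1 was not called (-1.07). Without HSC replicate 1 or HSC replicate 2, 2 family members were higher. Chromatin regulators had 4 higher and 6 lower of 15, beside 35.8% and 24.1% of all genes tested. Hmga2, a chromatin protein of fetal and stem cells, was higher by 33.8 and the methyltransferase Dnmt3b by 28.4 points, at 93.6 and 93.5 in HSC, against 65.3, 63.6 and 66.7 in DP thymocytes. Dnmt3a, the Polycomb gene Cbx7 and Ezh2 were lower, at -9.62, -14.9 and -2.40 (Ezh2 not called without any single DP replicate), while Bmi1 was higher by 3.25.

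Markers of mature and committed blood cells were higher in HSC than in DP thymocytes. The HSC gate was set on surface markers, and the source of this RNA, progenitors or other cells in the sort, was not tested. Granulocyte markers were higher in 11 of 11 tested (12 measured), beside 35.8% of all genes tested. Their mean percentile was 95.4 in HSC 1, 84.2 in HSC 2 and 29.3 to 31.3 in the DP arrays. Mpo, myeloperoxidase, was at 99.7 and 99.9 in HSC, against 29.7, 32.7 and 26.5 in DP thymocytes. It passed the filter through the HSC arrays alone and so had to be higher, as did such members of the marker lists below. Elane, neutrophil elastase, was higher by 54.3 ± 2.16 points. The late granule genes Ltf and Lcn2 differed between the HSC arrays, at 97.9 and 61.4 for Ltf and 95.0 and 55.4 for Lcn2.

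Megakaryocyte, erythroid and basophil markers differed less between the HSC arrays, with mean percentiles in HSC 1 and HSC 2 of 82.7 and 82.3 for megakaryocyte, 86.1 and 82.0 for erythroid, and 77.4 and 75.2 for mast cell and basophil markers. Megakaryocyte markers were higher in 9 of 10 and lower in 1, beside 35.8% and 24.1% of all genes tested. Ppbp, Vwf, Car1 and Mcpt8 passed the filter through the HSC arrays alone and so had to be higher. Ppbp, a platelet chemokine, was at 96.7 and 96.4 in HSC, against 2.79, 2.62 and 3.53 in DP thymocytes (93.6 ± 1.85 points, adjusted p = 1.85e-05), Vwf, von Willebrand factor, at 92.1 and 89.8, against 8.62, 11.5 and 9.64, and Pf4, platelet factor 4, was higher by 45.8 points. The lower member, Gp1bb, differed by -5.31 points, while its other probe set was called higher by 63.1; without HSC replicate 2 or any single DP replicate, 0 members were lower. Erythroid markers were higher in 9 of 9 tested (11 measured): Car1, carbonic anhydrase 1, by 85.9 ± 1.98 points and the factor Klf1 by 63.3, at 94.6 and 98.1 in HSC. Mast cell and basophil markers were higher in 6 of 7 tested (8 measured), with the protease gene Mcpt8 at 96.0 and 91.7 in HSC, against 15.3, 14.4 and 17.4 in DP thymocytes, and Fcer1a, a chain of the IgE receptor, higher by 76.1 points.

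Macrophage and B cell markers differed between the HSC arrays. The mean percentile of the macrophage list was 91.6 in HSC 1 and 69.2 in HSC 2, against 46.3 to 47.8 in DP thymocytes, and that of the B cell list 70.3 in HSC 1 and 56.4 in HSC 2, against 50.5 to 50.8. Of 14 measured macrophage and monocyte markers, 13 were tested and 11 higher, beside 35.8% of all genes tested. HSC 1 exceeded HSC 2 by at least 10 points in 10 of the 14. Over all genes tested, 5.42% did so. C1qb, a complement component, was at 96.9 and 64.7 in HSC, against 35.7, 37.7 and 34.9 in DP thymocytes, and Cd163, a scavenger receptor, at 96.2 and 64.4, against 4.78, 4.05 and 4.92. Ms4a7 differed by -5.30 points without HSC replicate 1 and by 33.2 points without HSC replicate 2, each with 1 HSC array left. Of 11 measured B cell markers, 7 were tested and 5 higher, and HSC 1 exceeded HSC 2 by at least 10 points in 6. Cd79a, a chain of the B cell receptor, was at 90.9 and 59.5 in HSC and at 31.2, 30.5 and 31.8 in DP thymocytes, and Ms4a1, which encodes CD20, at 86.9 and 42.3 in HSC. The defining factor Pax5 was below the filter, at 33.6 and 38.7 in HSC, against 49.5, 49.5 and 48.6 in DP thymocytes. Without any single DP replicate, 2 or 3 of the B cell markers were higher. The part of such cells in the results was not tested.

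Markers of the remaining cell types went both ways, beside 35.8% higher and 24.1% lower over all genes tested. NK and cytotoxic markers had 1 of 4 tested higher and 1 lower (9 measured): Nkg7 was higher by 37.8 points (2 members were higher without HSC replicate 2) and Gzma, granzyme A, was at 62.8 and 62.8 in HSC, against 86.6, 88.3 and 87.9 in DP thymocytes. Markers of mature single-positive T cells had 2 higher, the interleukin-7 receptor and Klf2, and 4 lower among 7 tested (9 measured). Stroma, epithelium and endothelium markers had 2 higher and 1 lower among 8 tested (14 measured): Bgn, biglycan, by 44.9, Col4a1 by 39.9 and Pecam1, at -19.3 points. Without HSC replicate 2, 5 of them were higher and 2 lower. The thymic epithelium genes Psmb11 and Foxn1 were below the filter, with 34.3, 34.3 and 35.3 for Psmb11 in DP thymocytes.

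**Figure D4:**
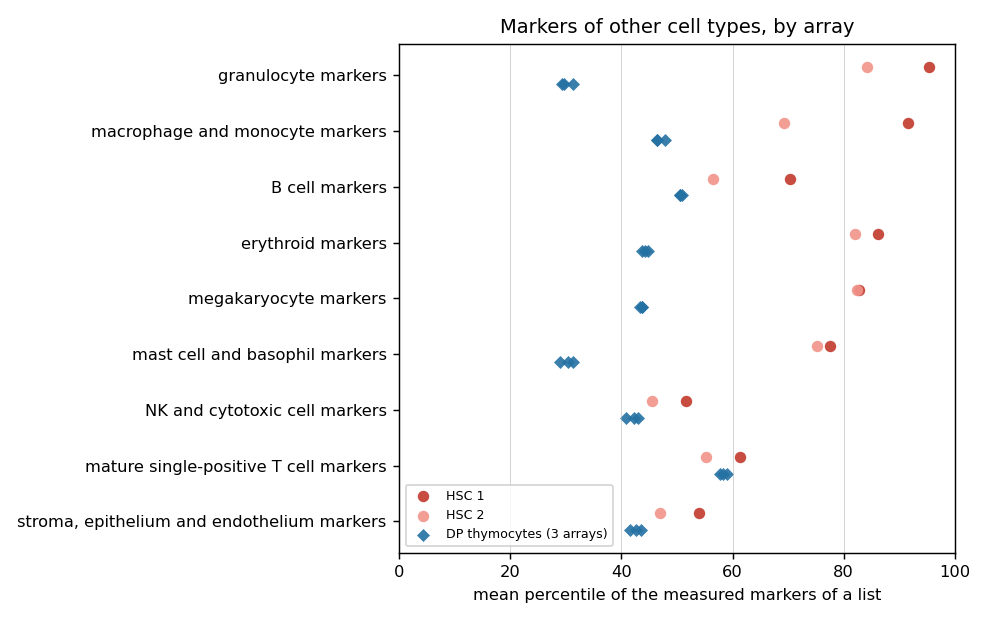
Mean percentile of the measured markers of each other cell type in HSC 1 (dark red), HSC 2 (light red) and the 3 DP arrays (blue diamonds). HSC 1 lies well to the right of HSC 2 for macrophage and B cell markers, and the HSC arrays coincide for megakaryocyte markers.

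Several measures of sample origin and handling moved with the groups. Genes of the Y chromosome were among the largest differences: Eif2s3y was at 5.56 and 12.7 in HSC, against 97.5, 96.0 and 96.2 in DP thymocytes, and Kdm5d at 2.28 and 1.30, against 88.1, 86.6 and 86.8. Uty had a difference of -52.4 ± 3.55 points. Xist, the RNA of the inactive X chromosome, was at 99.4 and 99.1 in HSC, against 57.2, 50.4 and 57.5 in DP thymocytes. Its other tested probe sets were called higher by 93.7 and 58.7 points and stood lower in DP thymocytes. The first was at 99.3 and 99.5 in HSC, against 4.83, 5.37 and 6.998 in DP thymocytes. The other was at 84.4 and 87.1 in HSC, against 27.5, 25.9 and 27.7. The labels name female donors for HSC; cell type and donor sex cannot be told apart for these genes. Immediate early genes, known to respond to tissue dissociation and sorting, were higher in 13 of 18 and lower in 2 (median 12.04 points). Over all genes tested, 35.8% were higher and 24.1% lower. Fosb was higher by 61.0, the heat shock gene Hspa1a by 61.8, Ier3 by 44.6 and Fos by 23.5 points, with Fos at 99.8 and 99.8 in HSC, against 76.0, 76.2 and 76.8 in DP thymocytes. The members lower in HSC were Egr2 and Btg2, with differences of -34.4 and -10.0 points; 4 were lower without HSC replicate 1, and 1 without any single DP replicate.

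The ratio of 3' to 5' control probe sets, a common gauge of RNA integrity and transcript length, was 5.79 and 3.91 for beta-actin in HSC, against 2.18 to 2.23 in DP thymocytes. For Gapdh it was 6.68 and 3.64 in HSC, against 3.19 to 3.66 in DP thymocytes, and for Tfrc 5.93 and 9.53, against 3.75 to 4.17. The part of these measures in the results was not tested. Common reference genes had a median difference of 0.803 points. Of 10, 4 were called higher, near the 35.8% of all genes tested, and 0 lower. The higher ones ranged from Pgk1 at 0.884 to Gusb at 16.5. Without DP replicate 1 or DP replicate 2, Pgk1 lost its call and 3 were higher. Of 3187 called genes with another tested probe set, 2391 had one called the same way, 270 one called the opposite way and 623 none called.

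The 10 called genes with the largest positive difference were Ppbp, an immunoglobulin kappa variable segment, Rgs18, Car1, Cd34, Tspan8, Prg2, Gja1, Vwf and Serpinb1a. Rgs18, a regulator of G protein signalling in platelets, was higher by 86.0 ± 2.09 points and Prg2, the major basic protein of eosinophils, by 81.7 ± 3.40, with 99.8 and 89.3 in HSC. Gja1, which encodes connexin 43, was higher by 81.7, Tspan8 by 83.6 and the protease inhibitor Serpinb1a by 80.7 points. These genes include platelet, erythroid, eosinophil and progenitor markers and the immunoglobulin segment.

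The 10 with the largest negative difference were the Y-linked Eif2s3y and Kdm5d, then Camk4, Tctex1d1, Morc1, Sh2d1a, Dgkeos, Tdrp, Skap1 and A430093F15Rik. Camk4, a calcium-dependent kinase of thymocytes, was at 19.0 and 16.8 in HSC, against 99.3, 99.3 and 99.2 in DP thymocytes (-81.4 ± 1.42 points, adjusted p = 1.85e-05), and 3 of its other probe sets were called the same way. Morc1, known from male germ cells, was at 3.86 and 4.06 in HSC, against 82.5, 80.3 and 82.4 in DP thymocytes. Tctex1d1, Tdrp and Dgkeos differed by -80.0, -69.4 and -71.1 points. All 20 genes of these groups kept their direction in each of the 5 fits without 1 array, and their call in each fit without a DP array.

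Some called genes had HSC arrays far apart. The 5 with the widest gap were Ear3, C1qc, Clec4a3, Xkrx and Prg3, with gaps of 42.4, 42.1, 40.8, 40.5 and 39.9 points. Ear3, an eosinophil-associated ribonuclease, was at 95.1 and 52.7 in HSC, against 5.90, 4.20 and 3.22 in DP thymocytes, and Prg3, a relative of the eosinophil gene Prg2, at 96.2 and 56.3, against 18.9, 12.4 and 13.2. C1qc, a complement gene of macrophages, was at 97.1 and 55.0 in HSC, against 35.2, 44.4 and 38.2 in DP thymocytes; it and Xkrx were not called without any single DP replicate. HSC 1 was the higher array in all 5 genes, also in Xkrx, where DP thymocytes stood above both HSC arrays at 81.8, 81.7 and 81.7.

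The genes that separate HSC from DP thymocytes can be followed into the other arrays, which were not used to choose them. The 50 called genes with the largest positive difference had a median percentile of 91.4 and 89.5 in HSC and of 8.56 to 10.8 in DP thymocytes, as the choice sets. Their median was 80.8 in LSC 1 and 38.5 in LSC 2. It was 37.5, 23.4 and 28.9 in the 3 unsorted T lymphomas, 10.8 in the sorted one and 9.54 in the cell line. LSC 1 thus lay nearer to HSC and LSC 2 between the groups, while the sorted lymphoma and the cell line lay at the level of DP thymocytes.

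The 50 called genes with the largest negative difference were intermediate to high in every other array. Their median percentile was 65.2 and 62.1 in LSC, 75.3 to 83.1 in T lymphomas and 69.4 in the cell line, against 29.9 and 28.1 in HSC and 89.2 to 91.3 in DP thymocytes. Meis1 stood at 70.1 and 38.4 in LSC, and Cd247 at 61.9 and 94.7. Eif2s3y stood at 98.1 and 97.2 in LSC and at 95.2 to 97.5 in T lymphomas and the cell line, so HSC were the only arrays in which it was low. Dgkeos, by contrast, was at 6.05 and 3.50 in LSC and between 8.23 and 11.2 in the lymphomas and the cell line, so that DP thymocytes were the only arrays in which it was high.

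**Figure D5:**
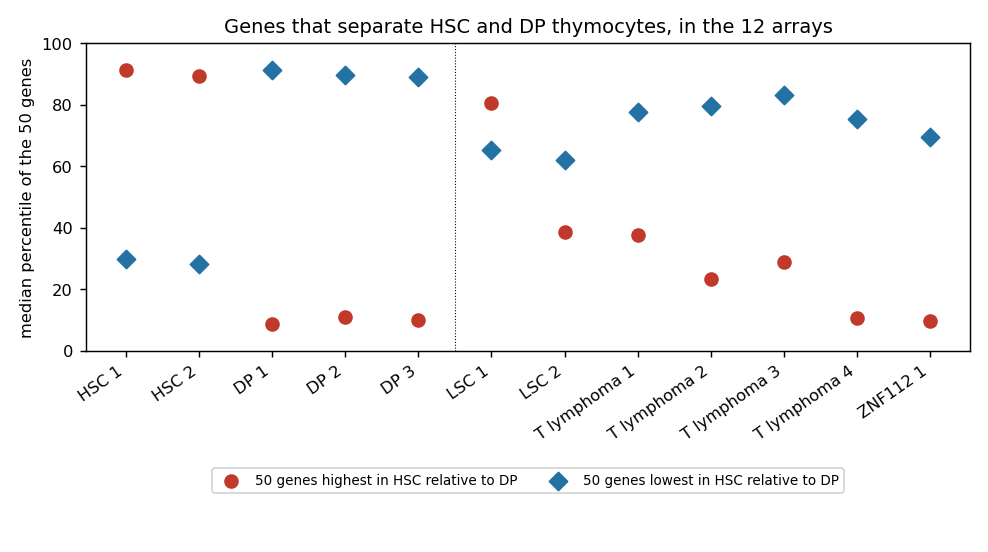
Median percentile, in each of the 12 arrays, of the 50 called genes highest (red circles) and the 50 lowest (blue diamonds) in HSC relative to DP thymocytes; arrays right of the dotted line were not used to choose the genes. The red circles are at 80.8 in LSC 1, 38.5 in LSC 2 and below 40 in every lymphoma and the cell line.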

How the data were processed

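Gene expression in 5 of the 12 samples, 2 of sorted HSC and 3 of sorted DP thymocytes, was read from the deposited table of probe set intensity values on a linear scale, made with RMA per the submitters' processing notes, which give no version. The authors had normalized the HSC side and the DP side apart, as the array medians show. Arrays carry no read depth, so their number limits the precision. The genome build used for the array's annotation is not given in the sources used here.

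Of 45101 probe sets, 64 array controls were left out and the other 45037 were ranked within each array. Through the platform annotation, 34945 had 1 gene symbol, 932 several and 9160 none; those with 1 symbol stood for 18193 genes. Each gene was represented by the probe set with the highest mean of the group means of its percentiles; this favours the upper part of the scale, where differences are compressed, so other tested probe sets are given for named genes where they were called and the probe set used was not, or was called the opposite way. Genes whose probe set was over the 50th percentile in at least 2 of the 5 arrays were tested with limma 3.58.1 in R 4.3.3 (a mean per group, eBayes with a trend, Benjamini-Hochberg adjustment over all 11642 genes). The samples are labelled biological replicates, each from pooled mice.

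Of 499 names in 36 gene lists, 459 had a probe set of their own and 427 were tested. The members and lists were chosen with earlier results of these data known. The text names the 10 largest called differences in each direction, in each list up to 6 called members in each direction and up to 3 not called, the sort and sex-linked genes, and the 5 called genes with the widest HSC gap. Further list members were named for their role after their values were seen. The fit was tested on simulated data.

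Replicate numbers do not pair the samples: deviations of same-numbered arrays correlated at 0.0573 and 0.00722. Alternatives covered the rank scale, log2 values, the filter, the choice of probe set, the arrays fitted, the spread, a minimum difference, the replicate number as a block and leaving out each array.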

Additional observations from a re-analysis of the deposited data

How the results depend on the processing

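Counts over all genes held within 1.5 times of 4170 higher and 2801 lower in HSC under most alternatives: 4137 and 2789 with normal scores, 4164 and 2819 with quantile-normalized log2 values, 3279 and 2927 with median-centred log2 values, 5259 and 3901 without a filter, 2955 and 2192 with a filter at the 70th percentile, 3920 and 2774 without cross-hybridising probe sets, 3348 and 2962 with the median over a gene's probe sets, 3299 and 2229 with a spread for each group and 3900 and 2517 without a trend. Outside that range lay the fit to all 12 arrays, with 2654 and 1618, and the minimum of 10 points, with 1411 and 498, which asks for larger differences. Leaving out 1 DP array gave 3385 to 3467 higher and 2044 to 2110 lower. Fits without an HSC array called more genes, but a single HSC array was left and the error came from DP arrays alone. With the replicate number as a block, 3287 and 1969 were called; only 2 numbers are shared, so this pairing rests on a number alone.

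Of 443 named and listed genes, 340 were called, and 166 were called in every alternative that measured them. Leaving out 1 DP array lost 35 to 39 calls, the all-array fit 79 and the 10-point minimum 159. The direction reversed for 12. With the median over probe sets these were Foxo3 at -1.92, Gp1bb at 28.9, Igll1 at -0.0384, Ndufb8 at -0.651, Psmb8 at 2.22, Sdha at -8.98 and Zap70 at -39.0 points. Among fits without 1 array, Egr1 ranged from -0.601 to 1.23, Foxo1 from -3.97 to 5.19, Mns1 from -10.4 to 3.53 and Ms4a7 from -5.30 to 33.2, with the sign turned without HSC replicate 1, and Tgfbr2 from -3.64 to 2.70, with the sign turned without HSC replicate 2. The cause was not tested. The median difference over genes tested was 0.18 on the log2 scale after quantile normalization and 0.05 after median centring. With 2 arrays against 3, array number limits the precision, and percentiles near 100 leave little room for a difference. No group was large enough to look for outlying arrays.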
